A study of Homo sapiens with 10 samples.

Results

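Keratins that mark the suprabasal layers of stratified epithelia, or the lining of the mouth, oesophagus and cornea, were followed in A253 cells, a human line derived from a squamous cell carcinoma of the salivary gland. The set was the 10 genes named KRT1, KRT2, KRT3, KRT4, KRT10, KRT13, KRT23, KRT76, KRT78 and KRT80, which are 10 of the 58735 genes in the count table. The series compared control A253 cells with cells edited at DUSP1 or SOX2, and the 4 libraries of its SOX2 experiment, of 10 libraries in all, were not analysed here. RNA from 3 groups was sequenced, with 2 libraries in each group. Control cells (sgRNA tomato) carried a guide against dTomato, a fluorescent protein that human cells do not encode. DUSP1 Cl1 and DUSP1 Cl10 were single-cell clones in which a pair of intronic guides had removed exon 2 of DUSP1 from some but not all of the alleles, so both are heterozygous (DUSP1-/+). The paper reports that neither clone showed DUSP1 protein on western blots. Guides and a constitutive Cas9 were both delivered by lentivirus, and all groups grew in DMEM with 10% FBS. Each clone descends from a single cell, and the sources used here do not say whether the control was cloned, so an effect of the genotype and a difference between cells of the parent line cannot be told apart. The labels do not say whether the 2 libraries of a group came from separate cultures, and p-values then measure only the spread between these libraries. In bulk RNA, fewer cells expressing a gene and less RNA per cell cannot be told apart.

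Keratins are the intermediate filament proteins of epithelial cells. Type I and type II keratins assemble as obligate pairs, and each layer of a stratified epithelium uses its own pair. KRT5 and KRT14 fill the basal cells of skin and mucosa. As cells leave the basal layer, KRT1 and KRT10 replace them in epidermis and KRT4 and KRT13 in non-cornified mucosa. KRT2 appears higher in the epidermis, KRT76 in the palate and gingiva, and KRT3 pairs with KRT12 in the corneal epithelium. KRT78 and KRT80 are late type II keratins, with KRT80 found at desmosomes and in the cortical cytoskeleton, and KRT23 is a type I keratin described in several glandular epithelia and carcinomas. DUSP1 itself encodes a dual-specificity phosphatase that switches off MAP kinases.

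All 10 genes lie on the minus strand of hg38 in the keratin clusters (GENCODE v44). The 7 type II genes are on chromosome 12: KRT80 at chr12:52168996-52192014, KRT2 at chr12:52644558-52652211, KRT1 at chr12:52674736-52680407, KRT76 at chr12:52768155-52777345, KRT3 at chr12:52789685-52796117, KRT4 at chr12:52806549-52814116 and KRT78 at chr12:52837804-52849092. The 3 type I genes are on chromosome 17: KRT10 at chr17:40818117-40822614, KRT23 at chr17:40922700-40937646 and KRT13 at chr17:41500981-41505705. The canonical transcripts of KRT10 and KRT13 have 8 exons and those of the other 8 genes have 9.

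The RefSeq promoter table (GRCh38.p14) held 5 of the 10 genes, namely KRT2, KRT3, KRT4, KRT10 and KRT76, each as 250 bases before and 50 bases after the start site on the minus strand. The promoters of KRT3 (chr12:52796068-52796367) and KRT4 (chr12:52814067-52814366) are shown because both genes were higher in both clones. That of KRT76 (chr12:52777296-52777595) is shown because it is the neighbour of KRT3 and had no counts, and that of KRT10 (chr17:40822565-40822864) because its gene moved little. Capitals mark the TATA box letters TATAAA:
KRT3: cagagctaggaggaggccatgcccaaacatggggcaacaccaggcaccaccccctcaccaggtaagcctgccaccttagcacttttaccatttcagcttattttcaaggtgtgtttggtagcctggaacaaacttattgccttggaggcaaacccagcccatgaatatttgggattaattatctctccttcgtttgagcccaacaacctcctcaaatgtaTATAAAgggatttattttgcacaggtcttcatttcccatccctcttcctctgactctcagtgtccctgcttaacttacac
KRT76: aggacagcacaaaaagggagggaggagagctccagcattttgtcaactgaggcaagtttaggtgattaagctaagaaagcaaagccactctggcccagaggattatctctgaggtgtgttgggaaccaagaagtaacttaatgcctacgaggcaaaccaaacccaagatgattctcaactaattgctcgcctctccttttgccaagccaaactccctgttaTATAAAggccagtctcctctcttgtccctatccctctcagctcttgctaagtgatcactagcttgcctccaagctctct
KRT4: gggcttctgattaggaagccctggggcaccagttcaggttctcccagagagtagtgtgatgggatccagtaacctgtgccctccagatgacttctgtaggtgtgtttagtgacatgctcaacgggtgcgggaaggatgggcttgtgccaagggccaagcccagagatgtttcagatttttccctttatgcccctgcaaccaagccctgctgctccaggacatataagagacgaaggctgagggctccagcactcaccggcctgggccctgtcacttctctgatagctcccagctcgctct
KRT10: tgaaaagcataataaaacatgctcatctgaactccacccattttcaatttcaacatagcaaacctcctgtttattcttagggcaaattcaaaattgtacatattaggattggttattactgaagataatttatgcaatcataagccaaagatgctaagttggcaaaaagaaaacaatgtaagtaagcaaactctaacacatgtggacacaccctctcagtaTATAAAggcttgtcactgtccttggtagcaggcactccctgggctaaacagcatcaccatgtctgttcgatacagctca

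The letters TATAAA, searched on both strands, begin 30 bases before the start site in KRT3 and 29 bases before it in KRT76 and KRT10. These exact letters are not in the windows of KRT4 and KRT2, and 3264 of 27305 promoters of the same 300 bases hold them. Both windows hold the near match TATAAG, and variants of the TATA box were not searched, so neither gene is shown to lack one. The AP-1 letters TGANTCA, also searched on both strands, are in 7.76% of those promoters and in none of these 5. The promoters of KRT3 and KRT76 were identical at 185 of 323 aligned columns (57.3%), while the other 9 pairs among the 5 ranged from 46.3% to 52.2%. The letters thus stand at nearly the same place in KRT3, which was counted in every library, and in KRT76, which was counted in none.

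Library totals ran from 47016495 to 70986593 counts. Levels below are normalized counts, that is, counts scaled by TMM factors to the mean library total, and errors are SD over n = 2 libraries. DUSP1 was at 751 and 637 in the control, 307 and 348 in Cl1, and 494 and 414 in Cl10, so both clones were below both control libraries. Its log2 fold change was -1.07 (SE 0.149, adjusted p = 0.000292) in Cl1 and -0.59 (SE 0.134, adjusted p = 0.0113) in Cl10, by edgeR's quasi-likelihood test with Benjamini-Hochberg adjustment over all genes. That test gives all p-values below, and a gene was called when its adjusted p was under 0.05 and its log2 fold change exceeded 1 in size. The labelled cell type is squamous carcinoma of the salivary gland: all 8 epithelial markers listed were expressed, with a summed level of 12787 to 14424 CPM, counts scaled to a common library total. The 6 acinar and duct markers summed to at most 0.436 CPM and the 4 leukocyte markers to at most 0.607 CPM, so the markers of secretory gland cells were near 0. The 5 fibroblast markers summed to 43.4 to 50.9 CPM in control and Cl1 and 30.3 to 32.2 CPM in Cl10, with LUM at 0 throughout. Nearly all of that was COL1A1 and COL3A1, with DCN at most 0.121 CPM and PDGFRB at most 0.0901 CPM. The 4 endothelial markers summed to 2.74 to 4.51 CPM in the control, 5.40 to 7.64 CPM in Cl1 and 3.28 to 4.22 CPM in Cl10, with KDR at 0 throughout. VWF alone was at 2.65 to 7.60 CPM, while CDH5 was at most 0.711 CPM and PECAM1 at most 0.0425 CPM. The 4 myoepithelial markers summed to 22.3 to 23.3 CPM in the control, 19.6 to 20.8 CPM in Cl1 and 41.9 to 42.6 CPM in Cl10. The higher sum in Cl10 was that of OXTR (log2 fold change 1.11), while ACTA2 was lower (-2.87), CNN1 was at -0.71 and MYH11 at 0.02, neither past the test. The part of these marker differences in the keratin results was not tested.

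Of the 10 keratins, 7 had enough counts to be tested and 3 were at or near 0 in every group. KRT1, KRT3 and KRT4 were low in the control and called higher in both clones. KRT80 was called higher in Cl1, and KRT78 was called lower in Cl10. In Cl1 this made 4 of 7 tested keratins higher and 0 lower, against 4.27% and 3.27% of all 20153 genes tested. By unadjusted p under 0.05, KRT10 was the 1 tested keratin that was lower in Cl1, with a change under the fold limit, and DESeq2 also called 0 lower. In Cl10 it made 3 of 7 higher and 1 lower, against 5.98% and 7.44% of 19875 genes. For KRT3 and KRT4, control replicate 1 fell short of the filter on low counts, so both entered the test through the clone libraries. Their place among the tested keratins thus came from the groups where they were high, which limits these counts as support. The median log2 fold change of the 7 was 1.19 in Cl1 and 0.46 in Cl10, and that of all genes tested was -0.013 and -0.011. At the adjusted p alone, with no fold limit, 5 members were higher and 1 lower in Cl1, against 12.4% and 12.8% of all genes, and 4 were higher and 1 lower in Cl10, against 20.6% and 21.8%. Both comparisons use the same 2 control libraries, so they are not independent of each other.

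**Figure D1:**
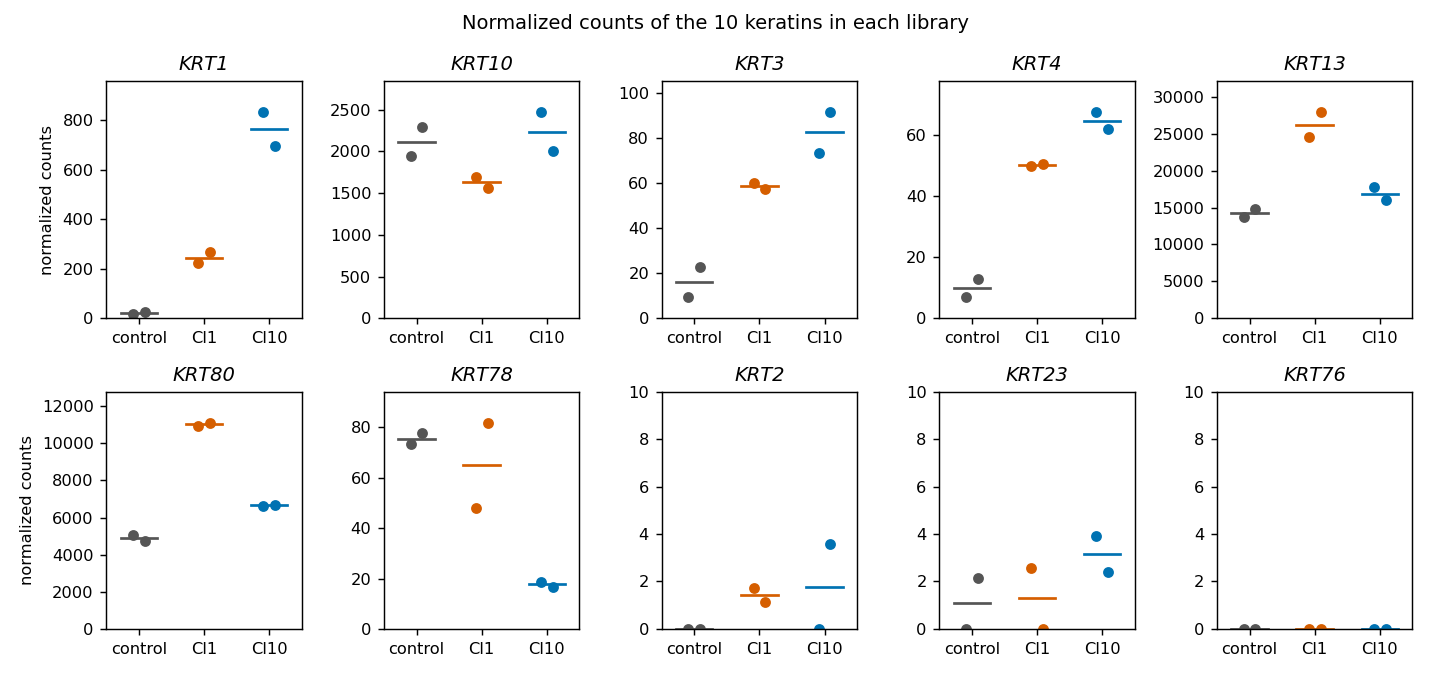
Normalized counts of each of the 10 keratins (y axis, a scale of its own for each gene, starting at 0) in the 2 control, 2 Cl1 and 2 Cl10 libraries; points are libraries and bars are group means. KRT1 climbs from 18.8 and 27.0 in the control to 833 and 694 in Cl10, KRT10 stays between 1562 and 2474, KRT78 drops in Cl10, and KRT2, KRT23 and KRT76 stay under 4.

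KRT1, the type II keratin of the spinous layer of epidermis, rose most. Its normalized counts were 18.8 and 27.0 in the control, 222 and 267 in Cl1, and 833 and 694 in Cl10. The 3 groups did not overlap, and they stood in the order control, Cl1, Cl10. The mean was 22.9 ± 5.78 in the control, 244 ± 31.4 in Cl1 (10.7-fold higher) and 763 ± 98.4 in Cl10 (33.4-fold higher). The log2 fold change was 3.44 (SE 0.258, adjusted p = 2.26e-06) in Cl1 and 5.10 (SE 0.203, adjusted p = 2.43e-05) in Cl10. With any 1 library left out it stayed between 3.18 and 3.71 in Cl1 and between 4.82 and 5.35 in Cl10.

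KRT10, the type I partner of KRT1, was already abundant in the control and moved little. Libraries of the control had 1948 and 2289 normalized counts, those of Cl1 had 1699 and 1562, and those of Cl10 had 2474 and 2000. Both Cl1 libraries were below both control libraries, while Cl10 and control overlapped. In Cl1 its log2 fold change was -0.36 (SE 0.117, adjusted p = 0.0392), under the fold limit. It lost the adjusted p without control replicate 2 (-0.23, adjusted p = 0.118), without Cl1 replicate 1 (-0.41, adjusted p = 0.153) or without Cl1 replicate 2 (-0.31, adjusted p = 0.287), and also with a replicate block (-0.36, adjusted p = 0.0557). In Cl10 the value was 0.10 (SE 0.126, adjusted p = 0.568). It passed without control replicate 2 (0.22, adjusted p = 0.000721) and turned negative without control replicate 1 (-0.023) or Cl10 replicate 1 (-0.058). An antisense gene, KRT10-AS1, overlaps 3514 bases of KRT10 and had 220 to 433 counts per library, and the strand setting of the counting is not given in the sources used here.

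KRT4, the type II keratin of non-cornified mucosa, was near the detection limit in the control, with 8 and 12 counts. Its normalized counts were 6.83 and 12.9 in the control, 49.9 and 50.8 in Cl1, and 67.7 and 62.0 in Cl10. Every clone library was above both control libraries. The mean rose from 9.88 ± 4.32 to 50.3 ± 0.584 in Cl1 (5.09-fold) and 64.8 ± 4.04 in Cl10 (6.56-fold). The log2 fold change was 2.39 (SE 0.413, adjusted p = 0.00126) in Cl1 and 2.76 (SE 0.367, adjusted p = 0.00128) in Cl10. A filter of at least 10 counts in every library drops KRT4 from the test, since control replicate 1 had 8.

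KRT13, the type I partner of KRT4, was the most abundant of the 10. It had 13742 and 14789 normalized counts in the control, 24515 and 27959 in Cl1, and 17792 and 16013 in Cl10. All groups were separate, with Cl1 highest. The mean was 14266 ± 741 in the control, 26237 ± 2435 in Cl1 (1.84-fold higher) and 16903 ± 1258 in Cl10 (1.18-fold higher). In Cl1 its log2 fold change was 0.90 (SE 0.132, adjusted p = 0.000440), past the adjusted p and short of the fold limit, which it met without Cl1 replicate 1 (1.00) and under no other alternative. In Cl10 it was 0.26 (SE 0.0926, adjusted p = 0.0572). The adjusted p fell under the threshold with DESeq2 (adjusted p = 0.0472), with scaling by library size only (adjusted p = 0.0498), without the filter on low counts (adjusted p = 0.0445), and without control replicate 1 (log2 fold change 0.20) or control replicate 2 (0.31). It turned to -0.047 when the median change of the 50 nearest tested genes was subtracted.

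KRT3, the type II keratin of corneal epithelium, had 11 and 21 counts in the control. Its normalized counts were 9.39 and 22.6 in the control, 60.3 and 57.7 in Cl1, and 73.6 and 91.8 in Cl10. Clone libraries all lay above the control, whose 2 libraries were far apart in relative terms. The log2 fold change was 1.93 (SE 0.400, adjusted p = 0.00386, 3.68-fold) in Cl1 and 2.42 (SE 0.397, adjusted p = 0.00310, 5.16-fold) in Cl10. Without control replicate 1 it was 1.39 in Cl1 and 1.86 in Cl10, and without control replicate 2 it was 2.66 and 3.13. KRT3 shares 224 of its 2289 31-base words (9.79%) with other genes. Of these, 146 are shared with KRT76, which had 0 counts in all 6 libraries. Whether reads of the other genes were assigned to KRT3 was not tested. KRT12, the partner of KRT3 in cornea, had at most 1 count in a library.

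KRT80 was the member called higher in Cl1 from a high starting level. Normalized counts of KRT80 were 5078 and 4729 in the control, 10940 and 11114 in Cl1, and 6649 and 6679 in Cl10. The groups were separate and Cl1 was highest. The mean was 4904 ± 246 in the control, 11027 ± 122.5 in Cl1 (2.25-fold higher) and 6664 ± 21.4 in Cl10 (1.36-fold higher). Its log2 fold change was 1.19 (SE 0.115, adjusted p = 1.80e-05) in Cl1. In Cl10 it was 0.46 (SE 0.0806, adjusted p = 0.00412), under the fold limit, and lost the call by p without Cl10 replicate 1 (adjusted p = 0.0673) or Cl10 replicate 2 (adjusted p = 0.0815). The antisense gene LINC00592 covers all of KRT80. It had 135 and 104 counts in the control, 42 and 41 in Cl1 and 13 and 6 in Cl10, which is small beside the 4386 to 12707 counts of KRT80.

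KRT78 was the member that fell. Its normalized counts were 73.4 and 77.6 in the control, 48.2 and 81.9 in Cl1, and 18.6 and 16.7 in Cl10. The 2 Cl1 libraries lay on either side of the control, and both Cl10 libraries were far below all others. The mean was 75.5 ± 2.98 in the control, 65.1 ± 23.8 in Cl1 and 17.7 ± 1.38 in Cl10, which is 4.28-fold lower than in the control. The log2 fold change was -0.22 (SE 0.292, adjusted p = 0.631) in Cl1, or 0.15 without Cl1 replicate 1, and -2.06 (SE 0.270, adjusted p = 0.00122) in Cl10.

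KRT76 had 0 counts in all 6 libraries. KRT2 had 0 and 0 counts in the control, 2 and 1 in Cl1, and 0 and 3 in Cl10. KRT23 had 0 and 2 counts in the control, 3 and 0 in Cl1, and 4 and 2 in Cl10. None of these 3 genes was tested and no fold is given. A count of 0 allows up to 3 counts, which is 0.0423 to 0.0638 CPM depending on the library and covers counting error only. At this depth the upper-epidermal, palatal and glandular members were not detectable above that limit, apart from the 4 counts of KRT23 in Cl10 replicate 1.

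**Figure D2:**
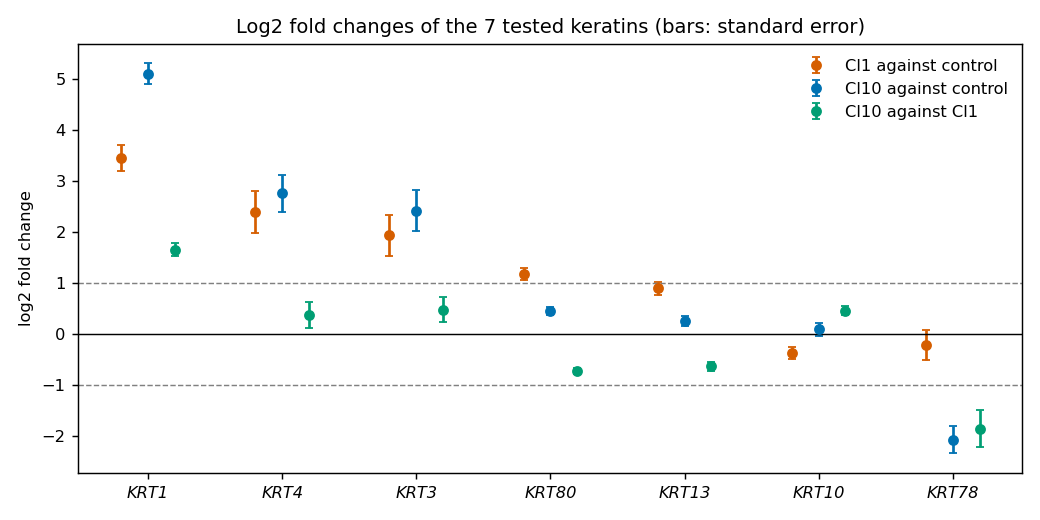
Log2 fold change (y axis) of the 7 tested keratins (x axis) for Cl1 against control, Cl10 against control and Cl10 against Cl1; points are edgeR estimates, bars are standard errors and dashed lines mark the fold limit at 1 and -1. KRT1, KRT4 and KRT3 lie above 1 for both clones, KRT13 and KRT10 lie within the limits in every comparison, and KRT78 lies below -1 where Cl10 is compared.

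The clones were also compared directly, which needs no control. KRT1 was called higher in Cl10 than in Cl1 and KRT78 lower, which is 1 of 7 each way against 4.47% and 6.28% of 19818 genes tested. KRT1 was 3.12-fold higher in Cl10 (log2 fold change 1.66, SE 0.132, adjusted p = 7.17e-07). KRT78 was 3.68-fold lower in Cl10 (-1.85, SE 0.368, adjusted p = 0.00113). KRT10 was higher in Cl10 by 0.46 (SE 0.0891, adjusted p = 0.000937), under the fold limit. The most abundant members went the other way: KRT13 was at -0.63 (SE 0.0801, adjusted p = 3.41e-05) and KRT80 at -0.72 (SE 0.0582, adjusted p = 7.82e-07), so both were higher in Cl1. KRT3 (0.48, SE 0.241, adjusted p = 0.117) and KRT4 (0.37, SE 0.255, adjusted p = 0.252) did not pass. At the adjusted p alone, 2 members were higher and 3 lower in Cl10, while 24.9% of all genes were higher and 24.1% lower at that threshold. The median of the 7 was 0.37 and that of all genes -0.0012.

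Genes around the type II members were lower as a group in Cl10. The median log2 fold change of the 50 nearest tested genes was -0.49 around KRT1, KRT3, KRT4 and KRT78 and -0.45 around KRT80 in Cl10 against control, and between -0.01 and 0.05 around the same genes in Cl1. In Cl10 against Cl1 it was -0.58 around KRT1 and KRT80 and -0.55 around KRT3, KRT4 and KRT78. Around KRT10 and KRT13 it was 0.16 and 0.31 in Cl10 against control. With that median subtracted, the calls against the control did not change, and in Cl10 KRT1 was at 5.58, KRT4 at 3.24, KRT3 at 2.91, KRT80 at 0.91 and KRT78 at -1.58 (adjusted p = 0.00456). In the direct comparison KRT3 was then called higher in Cl10 (1.03, adjusted p = 0.00400), KRT4 passed the adjusted p (0.92, adjusted p = 0.0108), KRT78 stayed lower (-1.30, adjusted p = 0.0122) and KRT80 no longer passed (-0.15, adjusted p = 0.0562).

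Along the chromosome, the type II cluster holds 27 keratins, counting the type I gene KRT18 at its end. In Cl1, 6 of the 19 tested were called higher and 0 lower, with a median of 0.39. In Cl10, 5 of the 18 tested were called higher and 5 lower, with a median of -0.070. Toward one end, KRT1, KRT3 and KRT4 were among the higher genes, and KRT78 sat next to KRT8, which was lower in Cl10 (-1.33, adjusted p = 0.000161). On its other side KRT78 (-2.06 in Cl10) sat next to KRT79, which was called higher in Cl10 (2.82). Those 2 neighbours thus moved in opposite directions in Cl10. Of the 28 type I keratins on chromosome 17, 6 of 16 tested were called higher in Cl1 and 4 of 17 in Cl10, with 0 lower in either and medians of 0.82 and 0.79. For both clusters, the shares of all genes called were 4.27% higher and 3.27% lower in Cl1, and 5.98% and 7.44% in Cl10. Several of the keratins called higher entered the test through the clone libraries. On chromosome 12 these were KRT3 and KRT4 in both clones, KRT84 in Cl1 and KRT79 in Cl10. On chromosome 17 they were KRT36 and KRT38 in Cl1 and KRT37 in Cl10. The cluster counts are limited as support for that reason.

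**Figure D3:**
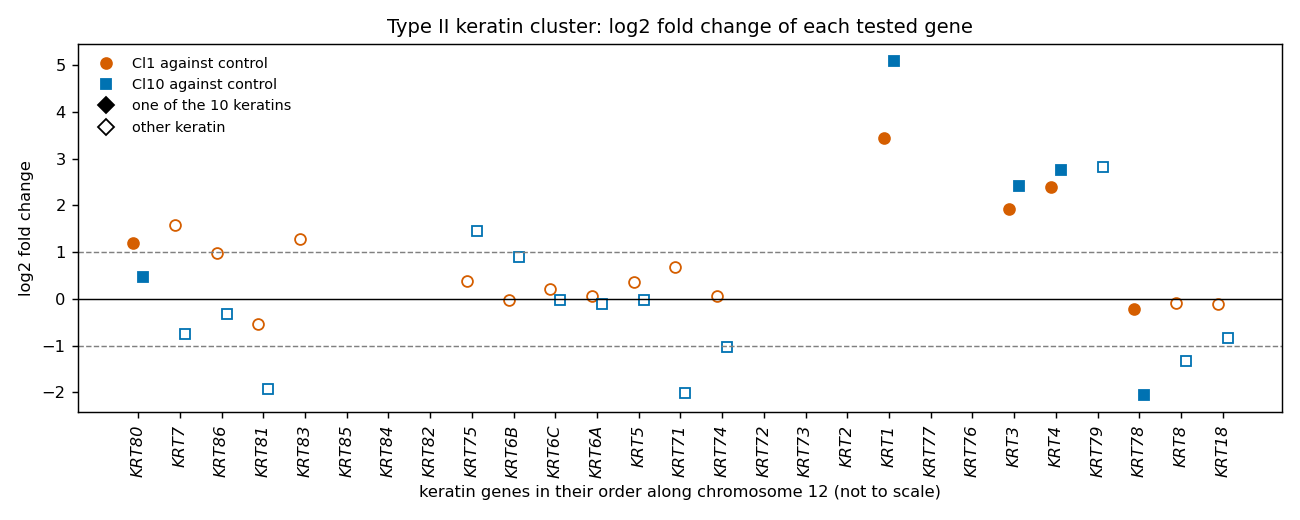
Log2 fold change (y axis) of each tested keratin of the chromosome 12 cluster, in gene order (x axis, not to scale), for Cl1 (circles) and Cl10 (squares) against control; filled symbols are members and dashed lines mark 1 and -1. Genes without a symbol were not tested, except KRT84 in Cl1, which is left off because its control is at 0; KRT1, KRT3 and KRT4 stand above 1 for both clones and KRT78 stands at -2.06 for Cl10.

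Levels of partners were set against each other as normalized counts per kilobase of exon, as a description with no test. KRT1 per 100 KRT10 was 0.838 and 1.02 in the control, 11.4 and 14.8 in Cl1, and 29.3 and 30.2 in Cl10. The epidermal pair was thus far from balance in the control, with nearly all of it KRT10, and KRT1 made up more of it in both clones. KRT4 per 100 KRT13 was 0.0503 and 0.0886 in the control, 0.206 and 0.184 in Cl1, and 0.385 and 0.392 in Cl10. The mucosal pair remained almost entirely KRT13 in every library. KRT13 per 100 KRT10, both type I, was 524 and 480 in the control, 1072 and 1329 in Cl1, and 534 and 595 in Cl10. With the lengths of the canonical transcripts in place of all exons, its group means were 845, 2021 and 950 in place of 502, 1200.3 and 564. The mucosal type I keratin exceeded the epidermal one in all 6 libraries, most in Cl1.

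**Figure D4:**
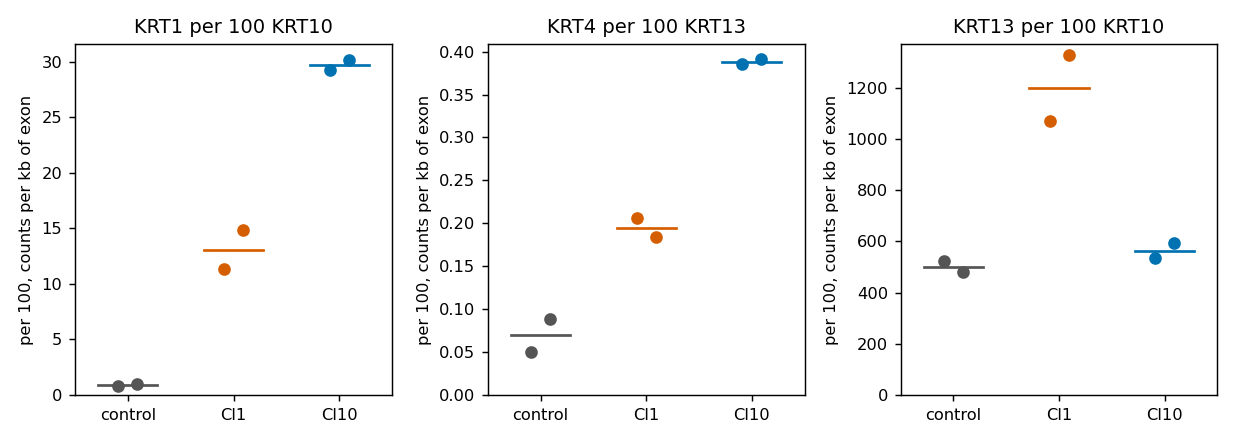
Ratios of keratin levels in counts per kilobase of exon (y axes, starting at 0) in each library of control, Cl1 and Cl10; points are libraries and bars are group means. KRT1 per 100 KRT10 and KRT4 per 100 KRT13 are lowest in the control and highest in Cl10, and KRT13 per 100 KRT10 is highest in Cl1 at 1072 and 1329.

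Over all 55 protein-coding keratins, the 10 members made up 2.37% and 2.40% of keratin transcripts in the control (counts per kilobase), 3.41% and 3.84% in Cl1, and 3.14% and 3.01% in Cl10. Both clones lay above the control. Most of that share was KRT13, at 1.64% and 1.68% in the control, 2.42% and 2.83% in Cl1, and 2.09% and 1.99% in Cl10. KRT1, in spite of its large fold, made up at most 0.115% of keratin transcripts. The basal keratin KRT14 made up 30.2% to 41.7%, so it stayed far above the members in all 3 groups.

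Late keratins related to the members were listed apart. KRT9, the type I keratin of palm and sole, was between 757 and 1053 normalized counts in all libraries, and its change did not pass in either clone (-0.07 on the log2 scale in Cl1, 0.23 in Cl10). KRT24, a type I keratin of differentiating keratinocytes, was at 75.1 and 88.4 in the control, 166 and 152 in Cl1, and 108 and 123 in Cl10. Its change was 0.98 (SE 0.210, adjusted p = 0.00484) in Cl1 and 0.52 (SE 0.202, adjusted p = 0.0783) in Cl10. KRT79, which lies between KRT4 and KRT78, had 6 and 3 counts in the control, 0 and 0 in Cl1, and 33 and 24 in Cl10. It was called higher in Cl10 than in the control (2.82, SE 0.453, adjusted p = 0.00274, 7.30-fold). Against Cl1 it was at least 10.1-fold higher in Cl10, with the floor of 3 counts applied per library. KRT12 and KRT77 had at most 1 count in a library.

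Other keratins were counted by the layer or tissue they mark. Beside these counts, 4.27% of all genes were called higher and 3.27% lower in Cl1, and 5.98% and 7.44% in Cl10. Of 9 basal and stress keratins, all tested, 2 were called in each clone, both higher. KRT16, the stress-induced keratin of wounded skin, was higher in both clones (1.96 in Cl1 and 1.11 in Cl10), KRT15 passed the limits in Cl1 (1.34, and 0.83 in Cl10) and KRT75 in Cl10 (1.46, and 0.39 in Cl1). Of 5 simple epithelial keratins, 4 were tested, and KRT7 was called higher in Cl1 (1.59, and -0.76 in Cl10) and KRT8 lower in Cl10. Both were lower in Cl10 than in Cl1 by the direct test (KRT7 -2.35, KRT8 -1.24). Of 25 hair, nail and root sheath keratins, 13 were tested in Cl1 with 5 higher and 0 lower, and 12 in Cl10 with 3 higher and 3 lower. KRT33B (1.48 in Cl1 and 1.85 in Cl10) and KRT33A (1.47 and 1.33), near-identical hair keratins whose reads may be split between them, were higher in both. KRT36, with 8 and 6 counts in the control, was higher in Cl1 (16.4-fold) and 2.42-fold higher in Cl10, where it was not called. KRT84 was at least 8.29-fold higher in Cl1 than in the control, where it had 0 counts. In Cl10 KRT84 had 12 and 4 counts and was not tested against the control. KRT36 and KRT84 entered the test in Cl1 through the libraries of that clone, where they were high. KRT38 in Cl1 and KRT37 in Cl10 did the same, which limits the counts of hair keratins as support.

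Genes that accompany the suprabasal keratins were listed too. Of 28 epidermal differentiation genes, 23 were tested in Cl1 with 7 called higher and 2 lower (median 0.14), and 22 in Cl10 with 8 higher and 0 lower (median 0.29). With no fold limit, 10 were higher and 3 lower in Cl1, and 9 higher and 3 lower in Cl10. Over all genes tested, 4.27% were called higher and 3.27% lower in Cl1, and 5.98% and 7.44% in Cl10. Without the fold limit the shares were 12.4% and 12.8% in Cl1, and 20.6% and 21.8% in Cl10. Some of the listed genes entered the test through the clone libraries where they were high. HRNR did so in both clones, CASP14 in Cl1 and RPTN in Cl10, which limits these counts as support. Involucrin (IVL), a precursor of the cornified envelope, was at 21.3 and 31.3 in the control, 348 and 400 in Cl1, and 590 and 623 in Cl10, a log2 fold change of 3.86 and 4.56. Hornerin (HRNR) changed by 2.17 and 3.19, the transglutaminase TGM5 by 2.89 and 1.72, and filaggrin (FLG) by 1.39 and 1.99, all called in both clones. Control counts were low, at 13 and 3 for HRNR and 12 and 10 for TGM5. Genes named after their values were seen went other ways. ALOXE3 (2.11-fold) and KLK7 (2.04-fold) were the 2 called lower in Cl1. KLK5 was 5.53-fold higher in Cl10 and 1.83-fold lower in Cl1. Repetin (RPTN) had 0 counts in the control and was at least 14.2-fold higher in Cl10, while CASP14, a caspase of cornifying cells, had 4 and 0 counts in the control, 105 and 86 in Cl1, and 10 and 10 in Cl10. IVL, HRNR and FLG were higher in Cl10 than in Cl1, and TGM5 and CASP14 were lower, each past the adjusted p in the direct test (0.000253, 0.00843, 0.0285, 0.00714 and 6.23e-06).

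Of 16 mucosal differentiation genes, 10 were tested in Cl1 with 2 higher and 1 lower (median 0.59), and 11 in Cl10 with 4 higher and 1 lower (median 0.83). The shares of all genes called were 4.27% higher and 3.27% lower in Cl1, and 5.98% and 7.44% in Cl10. SPRR3, a small proline-rich envelope protein of oesophagus, had normalized counts of 11.1 and 3.23 in the control, 70.6 and 50.8 in Cl1, and 142 and 137 in Cl10 (log2 fold change 3.02 and 4.20). The protease inhibitor A2ML1 changed by 2.77 in Cl1 and 1.10 in Cl10. The ammonium transporter RHCG was lower in Cl10 (-2.26, and -0.45 in Cl1), and CRCT1 was higher there (1.79). SPRR3 in both clones and CRCT1 in Cl10 entered the test through the clone libraries where they were high. That limits the counts of mucosal genes as support.

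Of 21 transcription factors and signalling genes of suprabasal differentiation, all tested, 5 were called higher in Cl1 and 0 lower (median 0.40), and 1 was higher and 1 lower in Cl10 (median -0.18). With no fold limit, 10 were higher and 1 lower in Cl1, and 4 higher and 5 lower in Cl10. Among all genes tested, 4.27% were called higher and 3.27% lower in Cl1, and 5.98% and 7.44% in Cl10. Without the fold limit those shares were 12.4% and 12.8% in Cl1, and 20.6% and 21.8% in Cl10. The Cl10 counts were near these shares. MAF, a factor of the keratinocyte differentiation programme, was higher in both clones (2.17 in Cl1 and 1.84 in Cl10). ZNF750, an epidermal differentiation factor, was higher in Cl1 (1.63), was at -0.37 in Cl10 and was lower in Cl10 than in Cl1 (-2.00, adjusted p = 6.28e-06). OVOL1 was at 1.19 in Cl1 and 0.75 in Cl10. NOTCH3, named after its values were seen, was called in opposite directions, at 1.32 in Cl1 and -1.27 in Cl10.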

How the data were processed

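RNA from A253 control, Cl1 and Cl10 cells was sequenced by the authors, 2 libraries per group, and aligned to hg38 with HISAT2. The deposited values are raw HTSeq counts per gene, and the submitters' processing notes also name StringTie and DESeq. Versions, gene annotation and strand setting are not given in the sources used here. The labels name a stranded mRNA kit and the study's methods a TruSeq RNA kit. Of 58735 identifiers, 58207 were in GENCODE v44 and held 99.9% of the counts.

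Counts were tested in R 4.3.3 with edgeR 4.0.16 (filterByExpr, TMM, estimateDisp, glmQLFit, glmQLFTest), each comparison on its own 4 libraries, with Benjamini-Hochberg adjustment over all genes tested. SE is the fold change over the square root of F. The code was tested on simulated data. DESeq2 1.42.0, other scalings and filters, 1 fit over the 6 libraries, a replicate block, leaving out each library, no fold limit and a local median of 50 genes were alternatives. Correlations of the replicate differences between groups were -0.068, -0.018 and 0.010 over 20582 genes, so no general pairing by replicate number was seen. A shared replicate effect on single genes was not tested, and KRT6C was higher in replicate 1 than in replicate 2 of every group. No pair of replicates agreed within counting noise: 58.5%, 47.3% and 23.6% of genes with 100 counts or more differed at p under 0.05.

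All members are named. Of each other list, up to 4 genes called alike in both clones and up to 2 called in 1 clone are named, by size. NOTCH3, ALOXE3, KLK7 and KLK5 were added after their values were seen, and KRT37 and KRT38 because of the filter on low counts. Members and lists were chosen with earlier results of these data known.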

Additional observations from a re-analysis of the deposited data

Results flagged for a closer look

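In the direct comparison of the clones, 5 of the 7 tested keratins passed the adjusted p of edgeR's quasi-likelihood test, a threshold that 24.9% of all genes tested passed as higher and 24.1% as lower, and 2 of the 5 also passed the fold limit. KRT1 (log2 fold change 1.66) and KRT10 (0.46) were higher in Cl10. KRT13 (-0.63), KRT78 (-1.85) and KRT80 (-0.72) were higher in Cl1. Every Cl10 library was on the same side of both Cl1 libraries for each of the 5. That adds no support, since the test that picked the 5 used the same libraries. With the median of neighbouring genes subtracted, KRT80 was at -0.15 and no longer passed (adjusted p = 0.0562). Groups of 2 libraries are too small for a test of single outlying libraries.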

How the results depend on the processing

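Of the values of single keratins under the alternatives, 230 kept their direction and side of the threshold, 7 became weaker, 8 stronger and 5 reversed, and 12 counts and ratios moved past their limits. The reversed values were KRT78 in Cl1 without Cl1 replicate 1 (0.15, range over libraries left out -0.64 to 0.15), KRT10 in Cl10 without control replicate 1 (-0.023), without Cl10 replicate 1 (-0.058, range -0.058 to 0.24) and with the local median subtracted (-0.062), and KRT13 in Cl10 with the local median subtracted (-0.047), none of which passed the test before or after. With no limit on the fold change, members called numbered 1 lower in Cl1, and 2 higher and 3 lower in Cl10 against Cl1, and all genes called numbered 2489 higher and 2575 lower in Cl1, 4103 and 4336 in Cl10, and 4932 and 4774 between the clones. With the local median subtracted, 2 members were higher in Cl10 than in Cl1. Canonical transcript lengths changed KRT4 per 100 KRT13 to 0.154 in Cl1 and 0.307 in Cl10, KRT13 per 100 KRT10 to 845, 2021 and 950 in control, Cl1 and Cl10, and the members' share of keratin transcripts to 2.12%, 3.26% and 2.83%, with the order of groups kept. The replicate block kept the calls of members (4 higher in Cl1, 3 higher and 1 lower in Cl10, 1 each way between the clones) and ended only the adjusted p of KRT10 in Cl1 (-0.36, adjusted p = 0.0557). Fits with 1 library in a group assume that it varies like the other group. Depth limits KRT2, KRT23 and KRT76, and control counts of 8 to 25 limit the folds of KRT1, KRT3 and KRT4.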
